A study of Mus musculus with 9 samples.

Results

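This report describes 34 genes of smooth muscle cells and pericytes, the contractile and supporting cells of vessel walls, in adult mouse hearts with and without Ezh2 in the lineage of the anterior heart field. The genes were taken from a list of names, and each was read at the probe set that carries only its symbol. Where a gene has several such probe sets, the one with the highest mean over all 9 arrays is used. Of the 34 listed genes 34 had such a probe set, out of 19935 genes in the table, and each of the 34 had exactly 1. Gucy1a3 was found under its newer symbol Gucy1a1.

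Gene expression was measured on Affymetrix arrays, 1 per heart, in RNA of the right ventricle and interventricular septum. The 4 Ezh2-deficient hearts had the genotype Ezh2f/f;Mef2cAHF::Cre, in which a Cre recombinase under an enhancer of Mef2c that is active in the anterior heart field removes floxed Ezh2 sequence. The 5 wild-type hearts had the genotype Ezh2f/f without Cre, although their titles name a heterozygous floxed allele (Ez f/wt). All mice were adults on a mixed C57BL/6 background. Ezh2 is the enzyme of Polycomb repressive complex 2 that methylates histone H3 at silenced genes. The enhancer acts in progenitors that give rise to the right ventricle, septum and outflow tract, while most smooth muscle cells and pericytes of coronary vessels come from the epicardium. Since every Ezh2-deficient heart and no wild-type heart carried Cre, an effect of Cre and loss of Ezh2 cannot be told apart.

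Smooth muscle contracts when a calcium-activated kinase phosphorylates myosin, and its thin filaments carry transgelin, calponin, caldesmon and tropomyosin. Serum response factor, encoded by Srf, switches on many of these genes together with its coactivator myocardin by binding a short promoter element called the CArG box. Pericytes wrap capillaries and are held there by platelet-derived growth factor B, which endothelial cells release and the receptor Pdgfrb on the pericyte reads. Several of the listed genes are also active in other heart cells: Des, Vcl, Pdlim3, Synpo2, Synm and Myocd in cardiomyocytes, Pdgfb in endothelium, and Tagln2, Cnn2, Flna and Actn4 in many cell types.

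All values are log2 expression values, so that a difference of 1 is a factor of 2, and each difference is Ezh2-deficient minus wild type. Array medians lay between 7.19 and 7.245, and 32 of the 34 genes had a mean above every array median; Cnn1 and Ramp1 lay below. The Ezh2 probe set read 8.74 to 8.98 in Ezh2-deficient hearts and 8.60 to 8.89 in wild-type hearts (difference 0.15, limma adjusted p = 0.485), and the table does not show whether its probes lie in the deleted part. Markers of ventricular muscle such as Myh6 (13.95 in Ezh2-deficient and 14.03 in wild-type hearts) were high throughout. The atrial marker Myl7 ranged from 8.07 to 11.63 among Ezh2-deficient and from 6.97 to 11.10 among wild-type hearts. Wild-type arrays 4 and 5 stood apart on the first principal component (30.7% of the variance) and Ezh2-deficient array 3 on the second (24%). The sample titles carry a letter, e or x, whose meaning is not given. Ezh2-deficient arrays 1 and 4 and wild-type arrays 1 and 2 carry e. By Xist and 3 Y-linked genes, Ezh2-deficient arrays 1 and 3 and wild-type array 4 came from females.

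Smooth muscle and pericyte genes mostly had a slightly higher mean in Ezh2-deficient hearts, and none passed the test. The mean was higher in Ezh2-deficient hearts for 30 of the 34 genes, against 48.4% of all genes and 47.9% of the 12146 genes whose own mean was at or above that of the dimmest member, 6.85, and the median difference was 0.20, against a median that rounds to 0.00 over all 19935 genes. By limma with Benjamini-Hochberg adjustment over all 28815 probe sets, 0 of 34 had an adjusted p under 0.05, as did 0.0347% of probe sets. At an unadjusted p under 0.05, 10 genes (29.4%) were higher, against a background of 5.77%, and 2 (5.88%) were lower, against 5.78%. Among the 12146 brighter genes those backgrounds were 7.85% and 8.09%. At 5 genes (14.7%) every Ezh2-deficient heart lay above every wild-type heart, which held for 2.1% of all genes and 2.99% of the brighter ones. At 0 genes did every Ezh2-deficient heart lie below every wild-type heart, against 2.19% and 3.38%. In bulk tissue more cells of a type and more RNA per cell cannot be told apart.

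**Figure D1:**
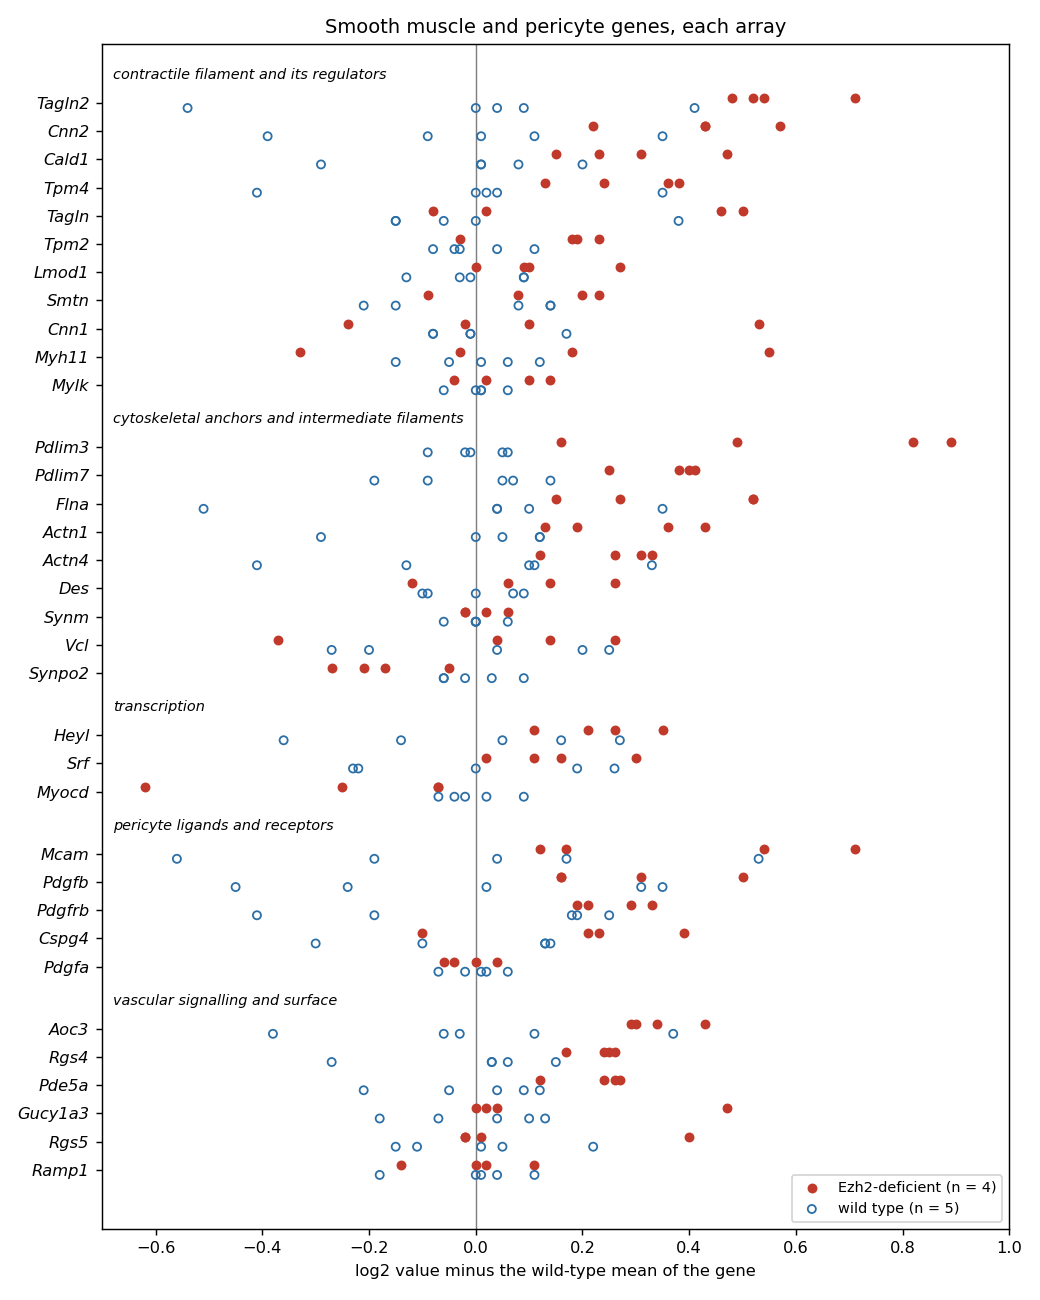
Each point is 1 array, placed by its log2 value minus the wild-type mean of that gene, for the 34 genes grouped by role. Filled points are the 4 Ezh2-deficient hearts and open points the 5 wild-type hearts. Pdlim7, Pdlim3, Tagln2, Rgs4 and Actn1 are the 5 genes at which the groups do not overlap.

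The shift was not spread evenly over the hearts. The median deviation of the 34 genes from their own means was 0.22, 0.02, 0.03 and 0.15 in Ezh2-deficient arrays 1 to 4, and 0.06, -0.01, -0.04, -0.12 and -0.29 in wild-type arrays 1 to 5. Wild-type array 5 was the lowest wild-type heart for 24 of the 34 genes, and array 4 for 5 more. Without wild-type arrays 4 and 5 the median difference was 0.09, with 27 of 34 genes higher and 7 higher at an unadjusted p under 0.05, against 4.01% of all genes in that fit. Within title letter e the median difference was 0.14 and within letter x 0.23, and 24 genes were higher within both letters, 4 lower within both and 6 of opposite sign. Without wild-type array 1 the count at an unadjusted p under 0.05 was 16, against 6.9% of all genes. Among hearts of males alone, 2 Ezh2-deficient and 4 wild-type, it was 4, against 3.33% of all genes, with a median difference of 0.19.

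**Figure D2:**
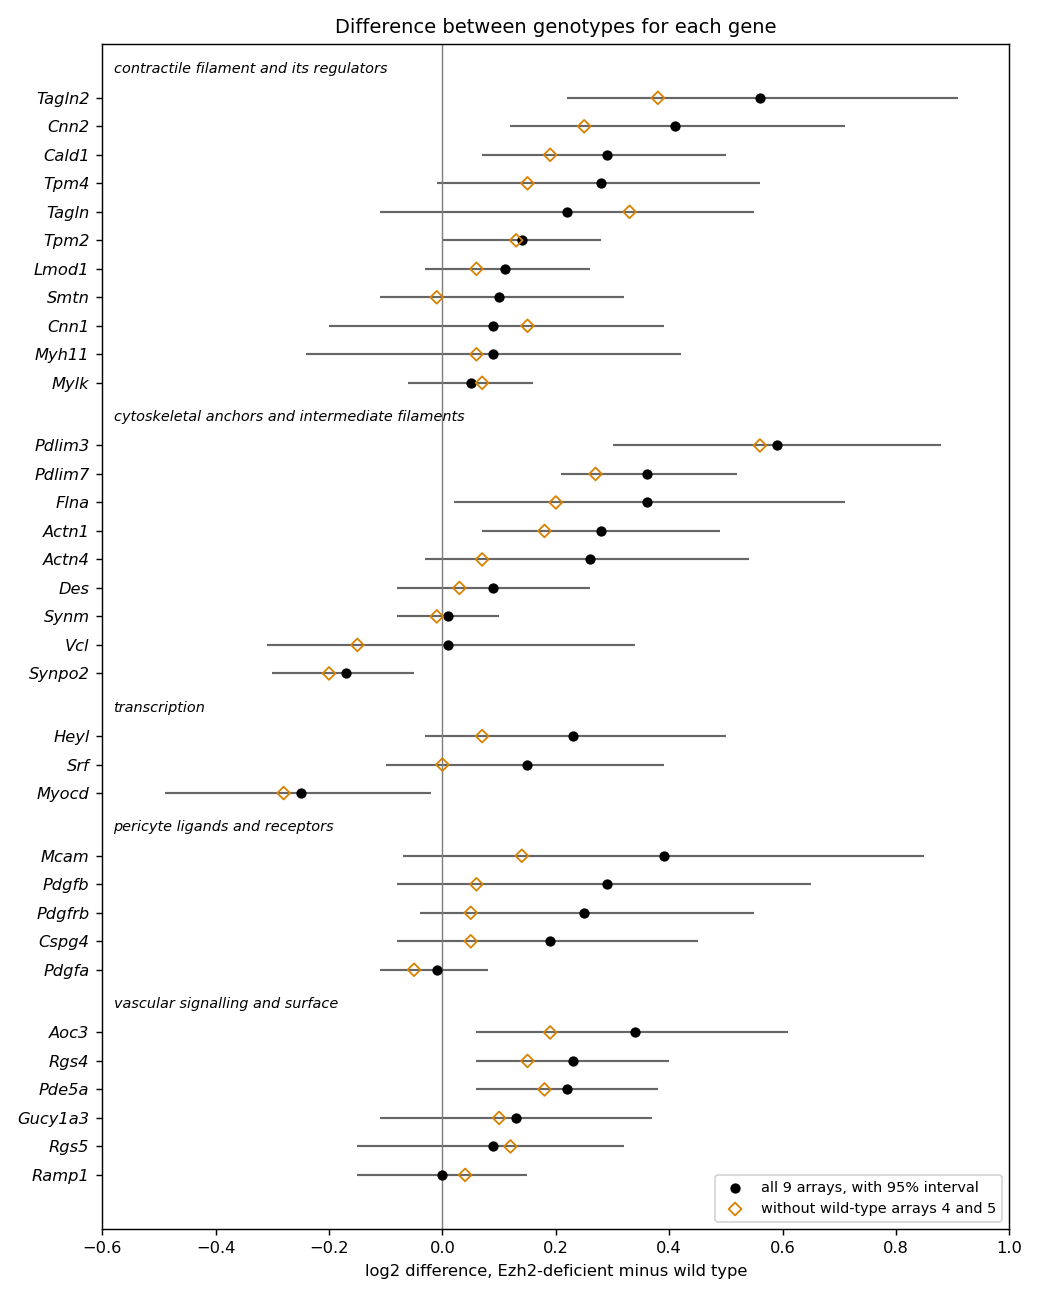
Filled points give the log2 difference, Ezh2-deficient minus wild type, over all 9 arrays, with limma's 95% interval as a line. Open diamonds give the difference without wild-type arrays 4 and 5. Pdgfrb, Cspg4 and Pdgfb lie close to 0 without those arrays (0.05, 0.05 and 0.06), while Pdlim3 stays near its value over all arrays (0.56 against 0.59).

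Promoters are shown because serum response factor acts on many of these genes through the CArG box. RefSeq windows of 300 bases (250 before the start and 50 after, build GRCm38.p6) were at hand for 27 of the 34 genes. The other 7, Myh11, Tagln, Myocd, Heyl, Pdgfb, Pdgfrb and Aoc3, had no window and were not searched. A search for the CArG box, CC, then 6 bases that are A or T, then GG, which matches on both strands at once and was counted once per position, found it in 3 of the 27 genes (11.1%), namely Cnn2, Srf and Vcl. Of 15612 measured genes with a window 1.63% held the motif. The Srf window held it at 2 positions, -82 and -62 from the start, and 0.0192% of measured genes had 2 or more. In Cnn2 it lay at -56 and in Vcl at -227. The 4 windows below show these 3 genes and Cnn1, the smooth-muscle paralogue of Cnn2, 5′ to 3′ on the strand of the gene, with CArG boxes in capitals. Cnn2 is at chr10:79988350-79988649 on the plus strand, Cnn1 at chr9:22099003-22099302 on the plus strand, Srf at chr17:46556113-46556412 on the minus strand and Vcl at chr14:20929148-20929447 on the plus strand.
Cnn2: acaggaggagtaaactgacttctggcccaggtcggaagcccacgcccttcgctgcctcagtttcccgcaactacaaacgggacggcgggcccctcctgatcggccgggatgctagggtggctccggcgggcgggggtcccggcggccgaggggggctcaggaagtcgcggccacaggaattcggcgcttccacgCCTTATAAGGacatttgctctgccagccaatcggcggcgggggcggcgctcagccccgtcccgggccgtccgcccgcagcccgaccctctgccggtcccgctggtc
Cnn1: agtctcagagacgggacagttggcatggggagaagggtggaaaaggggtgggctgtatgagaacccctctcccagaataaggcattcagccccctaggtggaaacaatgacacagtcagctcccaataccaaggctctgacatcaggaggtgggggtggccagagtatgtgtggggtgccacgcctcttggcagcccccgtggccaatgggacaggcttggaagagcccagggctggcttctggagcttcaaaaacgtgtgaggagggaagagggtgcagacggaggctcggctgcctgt
Srf: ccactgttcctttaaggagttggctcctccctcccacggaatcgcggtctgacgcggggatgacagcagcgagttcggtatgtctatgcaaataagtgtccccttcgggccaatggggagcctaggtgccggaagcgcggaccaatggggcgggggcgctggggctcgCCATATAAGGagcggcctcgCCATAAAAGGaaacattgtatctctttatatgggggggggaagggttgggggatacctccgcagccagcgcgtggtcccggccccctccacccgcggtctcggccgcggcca
Vcl: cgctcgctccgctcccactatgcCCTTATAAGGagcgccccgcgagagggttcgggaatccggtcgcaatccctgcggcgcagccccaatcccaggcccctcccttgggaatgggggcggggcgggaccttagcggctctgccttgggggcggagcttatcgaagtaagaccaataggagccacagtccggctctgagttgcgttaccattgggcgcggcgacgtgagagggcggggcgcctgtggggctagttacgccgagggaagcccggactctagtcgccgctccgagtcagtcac
No match in the Cnn1 window says only that these letters are not in it. The 3 genes with a match had differences of 0.41 (Cnn2), 0.15 (Srf) and 0.01 (Vcl). The 30 windows of the 27 genes held a median of 17.5 CpG dinucleotides, against 15 over the windows of measured genes.

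Among contractile filament genes, Tagln2, Cnn2 and Cald1 had the largest differences. All 11 had a higher mean in Ezh2-deficient hearts (median difference 0.14, range 0.05 to 0.56), 3 with an unadjusted p under 0.05. The share of all genes higher at that p was 5.77%. Tagln2, an actin-binding transgelin found in many cell types, read 9.59, 9.36, 9.42 and 9.40 in the Ezh2-deficient hearts, against 9.29, 8.97, 8.92, 8.88 and 8.34 in the wild-type hearts. The groups did not overlap, and wild-type array 5 was well below the rest. The difference was 0.56 (SE 0.15, 95% interval 0.22 to 0.91, limma adjusted p = 0.247), a fold of 1.48, and it was 0.38 without wild-type arrays 4 and 5. Cnn2, a calponin of non-muscle and smooth muscle cells, read 9.47, 9.12, 9.33 and 9.33 in Ezh2-deficient hearts and 9.25, 9.01, 8.91, 8.81 and 8.51 in wild-type hearts. Here wild-type array 1 lay above Ezh2-deficient array 2, so the groups overlapped. The difference was 0.41 (SE 0.13, limma adjusted p = 0.313), and 0.25 without wild-type arrays 4 and 5. Cald1, which encodes the actin- and myosin-binding caldesmon, read 9.60, 9.28, 9.44 and 9.36 in Ezh2-deficient hearts, against 9.33, 9.21, 9.14, 9.14 and 8.84 in wild-type hearts. Wild-type array 1 again reached into the Ezh2-deficient range (difference 0.29, SE 0.10, limma adjusted p = 0.342).

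The classical smooth muscle markers varied more among Ezh2-deficient hearts than between the genotypes. Myh11, the smooth muscle myosin heavy chain, read 8.63, 8.42, 8.12 and 9.0 in Ezh2-deficient hearts and 8.40, 8.57, 8.46, 8.51 and 8.30 in wild-type hearts. Ezh2-deficient array 4 was the highest and array 3 the lowest of all 9, on either side of the wild-type range. Its difference was 0.09 (SE 0.15, 95% interval -0.24 to 0.42, limma adjusted p = 0.860). Cnn1, the calponin that damps actin-activated myosin in smooth muscle, followed the same order, with 6.91, 6.79, 6.57 and 7.34 in Ezh2-deficient hearts, against 6.73, 6.80, 6.73, 6.98 and 6.80 in wild-type hearts. The difference was again 0.09 (SE 0.13, adjusted p = 0.834 by limma). Tagln, encoding the smooth muscle transgelin SM22, read 8.78, 8.30, 8.20 and 8.74 in Ezh2-deficient hearts and 8.28, 8.13, 8.13, 8.66 and 8.22 in wild-type hearts. In Ezh2-deficient arrays 1 and 4 it was above every wild-type heart, and wild-type array 4 came next (difference 0.22, SE 0.15, limma adjusted p = 0.632).

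Myh11, Tagln and Cnn1 went opposite ways within the title letters. Within letter e their differences were 0.33, 0.56 and 0.36, and within letter x -0.16, -0.09 and -0.16. Each letter holds 2 Ezh2-deficient hearts with 2 (e) or 3 (x) wild-type hearts, and whether the differences themselves differ between letters was not tested. Without Ezh2-deficient array 4 the differences of Myh11 and Cnn1 were -0.06 and -0.05, and without Ezh2-deficient array 3 they were 0.23 and 0.20. Tagln differed by 0.13 without Ezh2-deficient array 1 and by 0.14 without array 4. Among the other contractile genes, the tropomyosin gene Tpm4 differed by 0.28, by 0.17 without wild-type array 5 and by 0.12 within letter e. Tpm2, another tropomyosin gene, differed by 0.14. Lmod1, an actin nucleator of smooth muscle, differed by 0.11, Smtn, which encodes smoothelin, by 0.10, and Mylk, the myosin light chain kinase that starts contraction, by 0.05, none with an unadjusted p under 0.05.

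**Figure D3:**
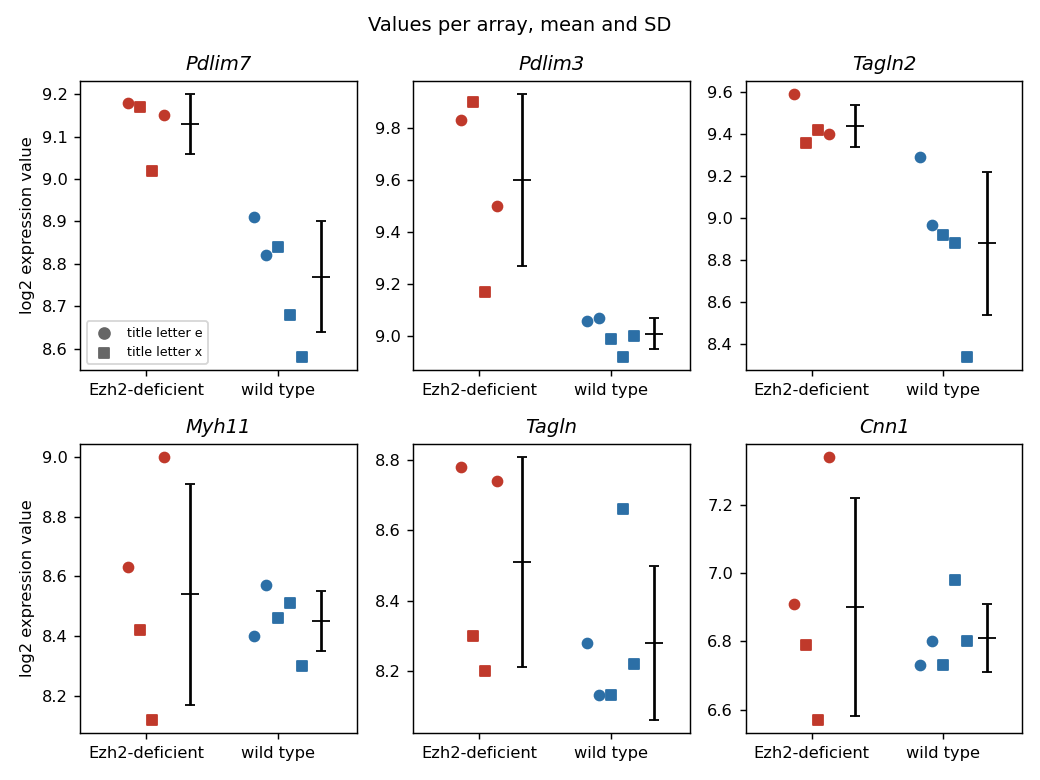
Points are the log2 values of the 4 Ezh2-deficient (left) and 5 wild-type (right) hearts, circles for title letter e and squares for letter x, with the mean and SD as a bar beside each group. The groups are apart for Pdlim7, Pdlim3 and Tagln2, while for Myh11, Tagln and Cnn1 the Ezh2-deficient circles lie above the Ezh2-deficient squares.

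Paralogues within the list were set side by side, and unequal change was not shown for any pair. The per-array gap between Tagln2 and Tagln was larger by 0.34 (SE 0.22) in Ezh2-deficient than in wild-type hearts, with an exact two-sided permutation p = 0.206 over all assignments of the 9 arrays to the groups. For Cnn2 over Cnn1 the gap was larger by 0.32 (SE 0.22, exact p = 0.183), and for Pdgfb over Pdgfa by 0.30 (SE 0.17, exact p = 0.135). Pdlim3 over Pdlim7 gave 0.22, Tpm4 over Tpm2 and Rgs4 over Rgs5 each 0.14, and Actn1 over Actn4 0.02. Over the 7 pairs the exact permutation p adjusted by Benjamini-Hochberg lay between 0.3 and 0.802. Without wild-type arrays 4 and 5 the gap was 0.06 for the transgelins, 0.11 for the calponins and 0.10 for the growth factors, against 0.28 for Pdlim3 over Pdlim7.

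The anchors that tie actin to membranes and Z-discs held the genes with the smallest p. Of 9, 8 had a higher mean in Ezh2-deficient hearts (median difference 0.26), 4 with an unadjusted p under 0.05, while Synpo2 was lower at that p. Across all genes 5.77% were higher and 5.78% lower at that p. Pdlim7, a PDZ and LIM domain protein of actin bundles also called enigma, read 9.18, 9.17, 9.02 and 9.15 in Ezh2-deficient hearts, against 8.91, 8.82, 8.84, 8.68 and 8.58 in wild-type hearts. The lowest Ezh2-deficient heart, array 3, was above the highest wild-type heart. The difference was 0.36 (SE 0.07, 95% interval 0.21 to 0.52), a fold of 1.29, with a limma adjusted p = 0.128. The exact two-sided permutation p = 0.00794, not adjusted, was the smallest that this design allows, and Pdlim3 and Actn1 had the same value. For Pdlim7 letter e alone gave 0.30 and letter x alone 0.39, hearts of males 0.37, and the arrays other than wild-type 4 and 5 gave 0.27.

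Pdlim3, a Z-disc protein of striated muscle that binds alpha-actinin, had the largest difference of the 34 genes. It read 9.83, 9.90, 9.17 and 9.50 in Ezh2-deficient hearts, against 9.06, 9.07, 8.99, 8.92 and 9.0 in wild-type hearts. The wild-type hearts lay close together, and Ezh2-deficient array 3 was nearest to them. The difference was 0.59 (SE 0.13, 95% interval 0.30 to 0.88, limma adjusted p = 0.157), a fold of 1.5, at 0.59 in the hearts of letter e and 0.56 in those of letter x. Across the 9 fits that left out 1 array it lay between 0.49 and 0.73. Actn1, a non-muscle alpha-actinin that crosslinks actin, read 8.75, 8.51, 8.45 and 8.68 in Ezh2-deficient hearts and 8.44, 8.44, 8.37, 8.32 and 8.03 in wild-type hearts. The groups just failed to overlap (difference 0.28, SE 0.10, limma adjusted p = 0.342).

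The remaining anchors gave a mixed picture. Flna, the actin crosslinker filamin A, read 10.90, 10.65, 10.53 and 10.90 in Ezh2-deficient hearts, against 10.73, 10.48, 10.42, 10.42 and 9.87 in wild-type hearts, where array 5 was far below the others. Its difference was 0.36 (SE 0.15, limma adjusted p = 0.442), with 0.23 left without wild-type array 5. Synpo2, which encodes the Z-disc and actin-bundling protein myopodin, read 8.93, 8.97, 8.87 and 9.09 in Ezh2-deficient hearts, against 9.08, 9.23, 9.17, 9.08 and 9.12 in wild-type hearts. Only Ezh2-deficient array 4 reached the wild-type range, and the difference was -0.17 (SE 0.05, limma adjusted p = 0.308). Actn4, another non-muscle alpha-actinin, differed by 0.26 with all arrays, by 0.15 without wild-type array 5 and by 0.07 without wild-type arrays 4 and 5. Intermediate filament genes were close to equal, at 0.09 for Des, which encodes desmin (95% interval -0.08 to 0.26), and 0.01 for Synm, which encodes synemin (-0.08 to 0.10). Vcl, encoding the adhesion protein vinculin, differed by 0.01 with a wide interval of -0.31 to 0.34.

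The regulators of the programme leaned in different directions. Myocd, the coactivator of serum response factor in heart and smooth muscle, read 10.06, 9.88, 9.51 and 10.06 in Ezh2-deficient hearts, against 10.09, 10.22, 10.15, 10.11 and 10.06 in wild-type hearts. All 4 Ezh2-deficient hearts were below the wild-type mean, array 3 by far the most. The difference was -0.25 (SE 0.11, 95% interval -0.49 to -0.02, limma adjusted p = 0.431), and it was -0.13 without Ezh2-deficient array 3. Srf itself read 9.63, 9.44, 9.35 and 9.49 in Ezh2-deficient hearts and 9.59, 9.52, 9.33, 9.11 and 9.10 in wild-type hearts. The difference was 0.15 (SE 0.11, adjusted p = 0.668 by limma), and it was nearly 0 without wild-type arrays 4 and 5. Heyl, a Notch target gene of vessel wall cells, differed by 0.23 (SE 0.12, limma adjusted p = 0.515), and by 0.07 without those arrays.

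Pericyte ligands and receptors had differences that depended on which arrays were included. Of 5 genes 4 had a higher mean in Ezh2-deficient hearts (median difference 0.25), and 0 had an unadjusted p under 0.05 in the main limma fit, on genotype alone. Without wild-type array 1, Mcam (0.52), Pdgfb (0.374) and Pdgfrb (0.315) had a limma unadjusted p under 0.05, while Cspg4 (0.222) and Pdgfa (-0.01) did not. In that fit 6.9% of all genes were higher at that p. On all 9 arrays, Mcam (0.333) and Pdgfb (0.244) were under it with the title letter as a block, and Mcam (0.398) with array weights. Cspg4 was under it without Ezh2-deficient array 3 (0.281) and without wild-type arrays 4 and 5 and that array (0.146). Within letter x alone Pdgfb (0.388) was under it. The share of all genes at that p in these further fits was not computed. Pdgfrb, the receptor that marks pericytes, read 10.54, 10.42, 10.40 and 10.50 in Ezh2-deficient hearts, against 10.46, 10.39, 10.40, 10.02 and 9.80 in wild-type hearts. The first 3 wild-type hearts were at the level of the Ezh2-deficient ones, and leaving out arrays 4 and 5 reduced the difference to 0.05 (0.25 with all arrays, SE 0.13, adjusted p = 0.533 by limma). Cspg4, which encodes the pericyte proteoglycan NG2, read 8.50, 8.34, 8.01 and 8.32 in Ezh2-deficient hearts and 8.25, 8.24, 8.24, 8.01 and 7.81 in wild-type hearts. Ezh2-deficient array 3 sat at the level of wild-type array 4, and the difference was 0.19 with all arrays (SE 0.12, adjusted p = 0.613 by limma) and 0.05 without wild-type arrays 4 and 5. It also depended on Ezh2-deficient array 3, since it was 0.28 without that array alone and 0.15 without all 3 arrays. Within title letter e, which holds none of these 3 arrays, Cspg4 differed by 0.17, and within letter x by 0.16. Mcam, an adhesion molecule of vessel walls, differed by 0.39 with an interval of -0.07 to 0.85. It differed by 0.14 without wild-type arrays 4 and 5, by 0.23 without these and Ezh2-deficient array 3, and by 0.28 within letter e. The ligand gene Pdgfb differed by 0.29, by 0.06 without wild-type arrays 4 and 5 and by 0.07 within letter e, and the ligand gene Pdgfa by -0.01 with a narrow interval of -0.11 to 0.08.

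Of 6 genes of vascular signalling, 3 had an unadjusted p under 0.05, all higher in Ezh2-deficient hearts. The share of all genes higher at that p was 5.77%. Rgs4, which shortens G protein signals, read 9.04, 9.11, 9.13 and 9.12 in Ezh2-deficient hearts, against 8.93, 8.90, 9.02, 8.90 and 8.60 in wild-type hearts. The groups did not overlap, by a narrow margin, 9.04 against 9.02 (difference 0.23, SE 0.08, limma adjusted p = 0.324). Pde5a, the phosphodiesterase that breaks down cyclic GMP, read 7.63, 7.48, 7.62 and 7.60 in Ezh2-deficient hearts, against 7.48, 7.40, 7.31, 7.45 and 7.15 in wild-type hearts. Only Ezh2-deficient array 2 touched the wild-type range (difference 0.22, SE 0.07, limma adjusted p = 0.313). Aoc3, a surface amine oxidase of vascular smooth muscle, read 7.73, 7.68, 7.69 and 7.82 in Ezh2-deficient hearts and 7.76, 7.50, 7.36, 7.33 and 7.01 in wild-type hearts. Wild-type array 1 lay within the Ezh2-deficient range, and the difference was 0.34 (SE 0.12, limma adjusted p = 0.375) and 0.19 without wild-type arrays 4 and 5.

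Rgs5, a widely used pericyte marker and relative of Rgs4, read 12.18, 12.21, 12.60 and 12.18 in Ezh2-deficient hearts and 12.21, 12.05, 12.25, 12.42 and 12.09 in wild-type hearts. Ezh2-deficient array 3 was the highest of all 9, and the other Ezh2-deficient hearts were inside the wild-type range (difference 0.09, SE 0.10, limma adjusted p = 0.798). Without that array the difference was -0.02. Gucy1a3, a subunit of the nitric oxide receptor guanylate cyclase, was also highest in Ezh2-deficient array 3, at 8.90 against 8.43 to 8.47 in the other 3. It differed by 0.13 with all arrays and by 0.02 without that array. The erythroid gene Alas2 was high in that same array as well, at 11.57 against 9.15 to 9.27 in the other Ezh2-deficient hearts, and its part in these values was not tested. Ramp1, which forms the receptor for calcitonin gene-related peptide, had an interval of -0.15 to 0.15.

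Markers of other cell types also differed in their means between the genotypes. All 14 endothelial markers had a higher mean in Ezh2-deficient hearts (median difference 0.17, 3 with an unadjusted p under 0.05, against 5.77% of all genes). Their summed level, on the log2 scale, was 14.18 to 14.27 in Ezh2-deficient and 13.68 to 14.21 in wild-type hearts. Their median deviation was lowest in wild-type array 5 (-0.36) and then array 4 (-0.15), as for the pericyte genes (-0.53 and -0.31), and the endothelial median difference without these arrays was 0.03. In that fit 4 endothelial markers were higher at an unadjusted p under 0.05, against 4.01% of all genes. All 12 fibroblast markers had a higher mean as well (median difference 0.45, 9 with an unadjusted p under 0.05), with a summed level of 15.05 to 15.30 in Ezh2-deficient and 14.54 to 14.93 in wild-type hearts. These sums did not overlap, and the median difference was 0.38 without wild-type arrays 4 and 5. It was 0.20 within title letter e and 0.68 within letter x. The median deviation of the fibroblast markers was 0.07, 0.31, 0.40 and 0.04 in Ezh2-deficient arrays 1 to 4. Of 9 myofibroblast matrix genes, which include Acta2, 9 had a higher mean (median difference 0.75), 8 with an unadjusted p under 0.05. For the fibroblast and the myofibroblast counts the share of all genes higher at that p was 5.77%, and 7.85% among the brighter genes. The summed level of the myofibroblast genes was 13.44 to 13.89 in Ezh2-deficient and 12.3 to 13.31 in wild-type hearts, also without overlap. Without wild-type arrays 4 and 5 their median difference was 0.57. Of 8 macrophage markers 7 had a higher mean (median difference 0.18), 0 with an unadjusted p under 0.05. A higher mean was found for 48.4% of all genes. The 12 ventricular cardiomyocyte markers all had a lower mean (median difference -0.06), with a summed level of 16.95 to 17.13 in Ezh2-deficient and 17.10 to 17.18 in wild-type hearts. Of these markers 1 was lower at an unadjusted p under 0.05, against 5.78% of all genes. At 2 of them every Ezh2-deficient heart lay below every wild-type heart, against 2.19% of all genes. The part of these cell types in the differences of the smooth muscle and pericyte genes was not tested, and the table gives no value of 0 and no detection call.

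**Figure D4:**
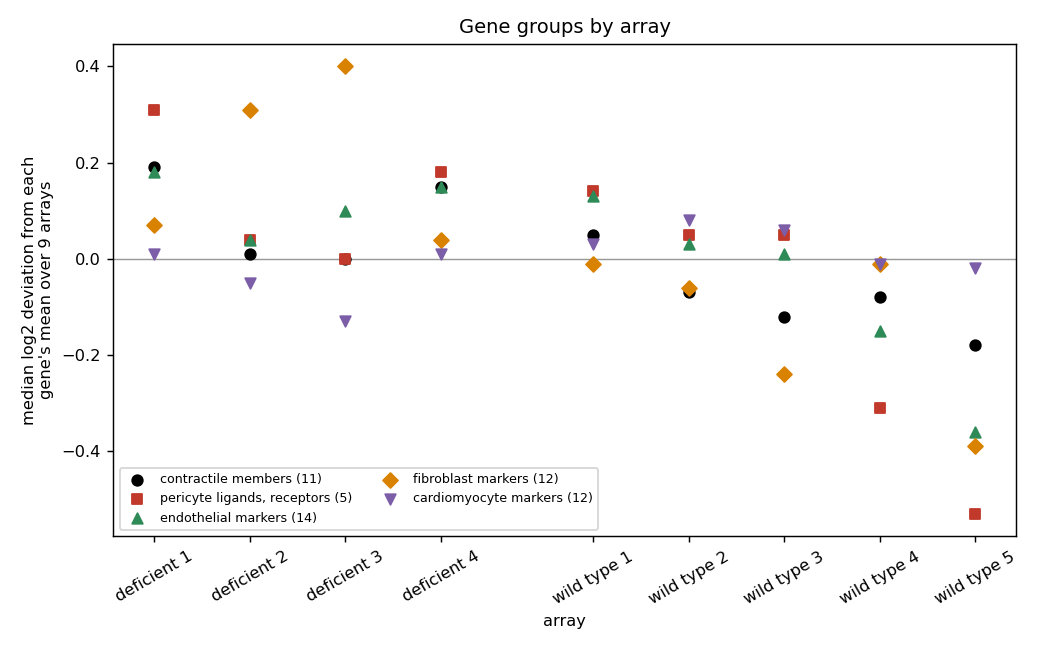
Each point is the median, over the genes of a group, of the log2 deviation from the gene's own mean over 9 arrays, with the 4 Ezh2-deficient arrays on the left and the 5 wild-type arrays on the right. The 5 pericyte ligand and receptor genes, without Rgs5, and the endothelial markers are lowest in wild-type arrays 5 (-0.53 and -0.36) and 4 (-0.31 and -0.15). Fibroblast markers are highest in Ezh2-deficient array 3 (0.40).

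Other mural cell genes outside the list leaned the same way by a smaller amount. Of 22 measured, 18 had a higher mean in Ezh2-deficient hearts (median difference 0.13). By limma 0 passed, with 5 higher and 1 lower at an unadjusted p under 0.05, against 5.77% and 5.78% of all genes. Myl9, the regulatory light chain of smooth muscle myosin, read 9.99, 9.64, 9.29 and 9.85 in Ezh2-deficient hearts, against 9.45, 9.05, 8.84, 9.22 and 8.71 in wild-type hearts. Ezh2-deficient array 3 alone lay within the wild-type range (difference 0.63, SE 0.17, limma adjusted p = 0.244). Acta2, the smooth muscle alpha-actin, named here as a defining marker, read 12.39, 12.01, 12.10 and 12.25 in Ezh2-deficient hearts and 12.40, 12.12, 11.98, 11.79 and 10.89 in wild-type hearts. Wild-type array 5 lay far below the other 8 hearts, whose ranges overlapped (difference 0.35, SE 0.26, limma adjusted p = 0.656). Foxc1, a transcription factor of mural cells, differed by 0.45 and Myl6, a myosin essential light chain, by 0.27, while Abcc9, a subunit of the potassium channel that pericytes and heart muscle share, differed by -0.18.

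Genes of the serum response factor pathway outside the list leaned further. Of 30 measured, 24 had a higher mean in Ezh2-deficient hearts (median difference 0.23), with 12 higher and 1 lower at an unadjusted p under 0.05, 7 higher without overlap, and 0 past the adjusted threshold by limma. Over all genes 5.77% were higher and 5.78% lower at that p, and 2.1% were higher without overlap. Ccn2, a matrix protein gene that responds to load, differed by 0.99 (SE 0.16, limma adjusted p = 0.101), and Ankrd1, a stretch-responsive protein of heart muscle, by 0.51 (SE 0.10, limma adjusted p = 0.129). Acta1, the skeletal alpha-actin that hypertrophic heart muscle makes, differed by 1.23 (SE 0.28), and the LIM protein gene Csrp2 by 0.24 (SE 0.06). The 2 other coactivators of serum response factor, Mrtfa and Mrtfb, differed by 0.10 (SE 0.06) and -0.05 (SE 0.06). Without wild-type arrays 4 and 5 the list had 12 genes higher at an unadjusted p under 0.05, against 4.01% of all genes, and a median difference of 0.11.

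Cyclic GMP and mural receptor genes outside the list included a few with small p in each direction. Of 21 measured, 16 had a higher mean in Ezh2-deficient hearts (median difference 0.13), with 3 higher and 2 lower at an unadjusted p under 0.05 and 0 past the adjusted threshold by limma. Across all genes 5.77% were higher and 5.78% lower at that p, and among the brighter genes 7.85% and 8.09%. At both lower genes every Ezh2-deficient heart was below every wild-type heart. That held for 2.19% of all genes and 3.38% of the brighter ones. Rgs2, another brake on G protein signals, read 9.20, 9.01, 9.26 and 9.27 in Ezh2-deficient hearts, against 9.34, 9.72, 9.56, 9.60 and 9.62 in wild-type hearts (difference -0.38, SE 0.08, limma adjusted p = 0.143). Pde1c, a calcium-dependent phosphodiesterase of heart and smooth muscle, read 8.44, 8.89, 8.38 and 8.62 in Ezh2-deficient hearts, against 8.93, 9.12, 9.28, 8.94 and 9.26 in wild-type hearts (difference -0.52, SE 0.12, limma adjusted p = 0.156). Npr3, the clearance receptor of natriuretic peptides, differed by 0.81 (SE 0.28) and Ramp2, part of the adrenomedullin receptor, by 0.28 (SE 0.10). The 4 other platelet-derived growth factor genes, Pdgfrl, Pdgfc, Pdgfra and Pdgfd, differed by 0.50, 0.09, 0.15 and 0.10, and at Pdgfrl the groups did not overlap. Across all genes 2.1% were higher without overlap, and 2.99% of the brighter ones.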

How the data were processed

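Total RNA was isolated with TRIzol and biotin-labelled, per the labels, and hybridised to 1 array per heart. The deposited log2 values per probe set come from RMA, and the submitters' processing notes also name Affymetrix Power Tools, without versions. The log2 scale was read from the range, 2.183 to 15.018. Genotype was taken from the sample descriptions, and replicates were numbered in sample order. Columns of other samples numbered 0.

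Of 28815 probe sets 21780 had 1 gene symbol, 1605 several and 5430 none in the annotation used; older symbols were matched through RefSeq synonyms (GRCm38.p6). The main test was limma (3.58.1, R 4.3.3), lmFit and eBayes, two-sided, fitted on genotype alone over all probe sets and 9 arrays, threshold 0.05 after Benjamini-Hochberg adjustment. Intervals are limma's 95% intervals. The fit was checked on simulated data. Exact permutation tests used all assignments of the arrays to groups of 4 and 5; those of the paralogue pairs were added after the values were seen. No batch is recorded, so the title letter was treated as a possible one. The number of arrays limits the precision: the median SE of a difference was 0.0674 over all probe sets and 0.108 over the 34 genes. The labels count as many mice as arrays, so p-values measure the spread between mice and its technical part together.

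The members, the further lists and the rule for named genes were chosen with earlier results of these data known. Values in every array are given for the defining markers and the genes with the smallest p, and from each further list up to 4 genes with the smallest p; Acta2, Mrtfa and Mrtfb were named after their values were seen. Pln, Acta1, Acta2, Ccn2, Notch3, Pdgfra, Tek and Tie1 stand in 2 of the lists. The result of 1 further list is not reported here. Alternatives were other normalizations, filters, spreads, covariates and subsets of arrays.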

Additional observations from a re-analysis of the deposited data

Results flagged for a closer look

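In each group of the 34 genes the highest and lowest array was compared with its nearest neighbour by Dixon's ratio. Of 68 groups 8 held an array past the 95% limit, and chance flags about 1 in 20 groups. Ezh2-deficient array 3 was the lowest of its group for Tpm2 (7.66, others 7.87 to 7.92) and Pdlim7 (9.02, others 9.15 to 9.18). The same array was the highest of its group for Rgs5 (12.60, others 12.18 to 12.21) and Gucy1a3 (8.90, others 8.43 to 8.47). Wild-type array 4 was the highest of its group for Tagln (8.66, others 8.13 to 8.28) and Cnn1 (6.98, others 6.73 to 6.80). Wild-type array 5 was the lowest of its group for Actn1 (8.03, others 8.32 to 8.44) and Rgs4 (8.60, others 8.90 to 9.02). These 3 arrays are those that stood apart on the principal components.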

How the results depend on the processing

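Under 21 alternatives 0 of the 34 genes passed the adjusted threshold of limma, and the median difference of the genes stayed between 0.088 and 0.227. Of 712 values of single genes under an alternative 41 changed sign, in 12 genes, none of which passed in any setting; the cause was not tested.

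Probe sets past the adjusted threshold over the whole table numbered 10, against 17 with median centring, 17 with dim probe sets left out, 37 with array weights, 17 with the title letter as a block, 3 with the Y-linked mean as a covariate, 5 without wild-type arrays 4 and 5, 6 without these and Ezh2-deficient array 3, 2 among hearts of males and 0 within either title letter. Leaving out 1 array gave 3 to 15. The 10 members higher at an unadjusted p under 0.05 became 4 among hearts of males and 7 to 16 when 1 array was left out. The 2 lower members became 1 with array weights, the Y-linked covariate, without wild-type arrays 4 and 5 or without these and Ezh2-deficient array 3. They became 0 within letter e and among hearts of males, and 1 to 2 when 1 array was left out.

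Sign changes within letter x were found for Myh11 (-0.156), Tagln (-0.088), Cnn1 (-0.158), Mylk (-0.036), Vcl (-0.025) and Ramp1 (0.024), and within letter e for Synm (-0.051) and Vcl (-0.023). Without wild-type arrays 4 and 5 they were found for Smtn (-0.015), Synm (-0.009), Vcl (-0.148), Srf (-0.004) and Ramp1 (0.037), and without these and Ezh2-deficient array 3 for Synm (-0.027), Vcl (-0.018) and Gucy1a3 (-0.011). Median centring gave Synm -0.003 and Vcl -0.002, array weights gave Synm -0.011, the letter as a block gave Vcl -0.024 and Ramp1 0.012, the Y-linked covariate gave Pdgfa 0.003 and Ramp1 0.007, and hearts of males gave Synm -0.015 and Ramp1 0.011. Leaving out 1 array gave ranges that cross 0 for Myh11 (-0.061 to 0.231), Cnn1 (-0.051 to 0.204), Synm (-0.006 to 0.028), Vcl (-0.069 to 0.143), Pdgfa (-0.032 to 0.002), Rgs5 (-0.015 to 0.142) and Ramp1 (-0.043 to 0.045).

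Hearts of males and the removal of 3 arrays were chosen after seeing the data. Each gene had 1 probe set, so the mean over probe sets gave no other value. Of the 34 genes 2 were left out as dim. No paired analysis was possible because the replicate numbers follow the order of the samples and pair nothing.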

Other observations

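Signals that vessel wall cells exchange with endothelium outside platelet-derived growth factor leaned higher with exceptions. Of 15 measured angiopoietin, Notch and related genes 13 had a higher mean in Ezh2-deficient hearts (median difference 0.14), with 3 higher and 2 lower at an unadjusted p under 0.05 and 0 past the adjusted threshold by limma. Over all genes 5.77% were higher and 5.78% lower at that p. Angpt1, the angiopoietin that stabilises vessels through the receptor Tek, read 8.61, 9.76, 9.59 and 9.53 in Ezh2-deficient hearts, against 9.79, 10.05, 9.91, 10.07 and 10.58 in wild-type hearts. The groups did not overlap, and Ezh2-deficient array 1 was the lowest (difference -0.71, SE 0.23, limma adjusted p = 0.328). In this list 1 gene was lower and 1 higher without overlap, against 2.19% and 2.1% of all genes. The Notch target genes Hey1 and Hey2 differed by 0.19 (SE 0.06) and -0.18 (SE 0.07), and Notch1 by 0.28 (SE 0.10).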
